A study of Mus musculus with 6 samples.

Results

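The transcripts described here were 9 markers of preadipocytes, stromal progenitors and fibroblasts, *Dlk1*, *Pdgfra*, *Pdgfrb*, *Cd34*, *Ly6a*, *Thy1*, *Vim*, *S100a4* and *Cd24a*, taken by symbol from the 24421 genes counted in each library of 3T3-L1 adipocytes, and all 9 were found. 3T3-L1 is a mouse preadipocyte line, which the labels assign to strain C57BL/6, although the line is of Swiss mouse origin. All libraries came from cells that were induced 2 days after confluency with insulin (870 nM), a thiazolidinedione (5 μM), dexamethasone (1 μM) and IBMX (500 μM), and kept without dexamethasone and IBMX from day 3. On day 7 the cells received 100 pfu/cell of an adenovirus that expressed either *LacZ* (AdLacZ, the control) or a codon-optimized murine *Lmo3* (Ad*Lmo3*). RNA taken 72 h later gave 3 libraries per group. The libraries are numbered as replicates of a single cell line, and the sample titles do not say whether they were separate infections. Cultures that were not infected or not differentiated were not analysed here, and every level below is that of a differentiated, virus-treated culture.

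Fat cells arise from fibroblast-like progenitors of the stroma, which carry PDGF receptors and surface glycoproteins by which they are sorted from adipose tissue. CD34, SCA-1 (encoded by *Ly6a*), CD24 (*Cd24a*) and THY1 are used for this purpose. DLK1, also called PREF-1, is a preadipocyte protein with EGF-like repeats that restrains adipogenesis, and vimentin (*Vim*) and FSP1 (*S100a4*) are cytoskeletal and calcium-binding proteins of fibroblasts. Differentiation of 3T3-L1 cells is known to lower several of these transcripts, and cells that do not convert remain among the adipocytes. In RNA from a whole culture, fewer cells of a type and less RNA per cell cannot be told apart.

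The libraries held between 28035639 and 38332335 counts on genes. Levels are given as CPM, gene counts scaled to a common library size after TMM, a correction for differences in library composition, and 3 counts, the smallest number taken as detectable, corresponded to 0.0768 to 0.111 CPM. *Lmo3* itself was at 0 counts in all 6 libraries, so that the labels could not be checked through it. The adipocyte label was checked by level, and per kb of exon *Cfd* (adipsin) stood at 2634 CPM and *Adipoq* (adiponectin) at 1307 CPM in AdLacZ. Markers of other cell types were low: the 7 leukocyte markers summed to between 2.67 and 5.45 CPM per library, with 5 of them at or under 3 counts in every library, among them *Ptprc* (CD45). The 6 endothelial markers summed to between 1.07 and 2.38 CPM, with *Cdh5* at no more than 0.135 CPM. Of the 5 mural cell markers, which summed to between 12.4 and 18.2 CPM, *Notch3* gave nearly all.

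The progenitor markers fell into a group of 7 that were well expressed and a pair, *Cd24a* and *Cd34*, near the detection limit. Levels of different genes were compared per kb of exon of GENCODE M21 on GRCm38. The length of a gene was that of all its annotated exons merged, for example 584 bases for *S100a4* and 5657 bases for *Dlk1*. This length can exceed that of the expressed transcript, to a different degree in each gene. Orders, ranks and ratios between genes therefore depend on it. On this scale the order of the means over 6 libraries was *Vim* (271 CPM per kb), *Dlk1* (205), *Ly6a* (87.0), *S100a4* (76.1), *Pdgfrb* (33.6), *Pdgfra* (18.5), *Thy1* (14.8), *Cd24a* (0.152) and *Cd34* (0.0478). The ranges over libraries of *Vim* and *Dlk1* overlapped (234 to 302 and 150.2 to 251 CPM per kb), and so did those of *Dlk1* and *Ly6a* (37.1 to 203), of *Ly6a* and *S100a4*, of *Pdgfra* and *Thy1*, and of *Cd24a* and *Cd34*. *S100a4* and *Pdgfrb*, *Pdgfrb* and *Pdgfra*, and *Thy1* and *Cd24a* were parted without overlap. Beyond neighbours in the order, the wide range of *Ly6a* also overlapped that of *Pdgfrb* (27.0 to 39.9). Among the 12271 tested genes with a matched exon length, *Vim* ranked 93rd and *Dlk1* 138th, whereas *Cd24a* and *Cd34* ranked 11746th and 12210th. The middle of all these genes was 6.33 CPM per kb, which 7 of the 9 markers exceeded.

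**Figure D1:**
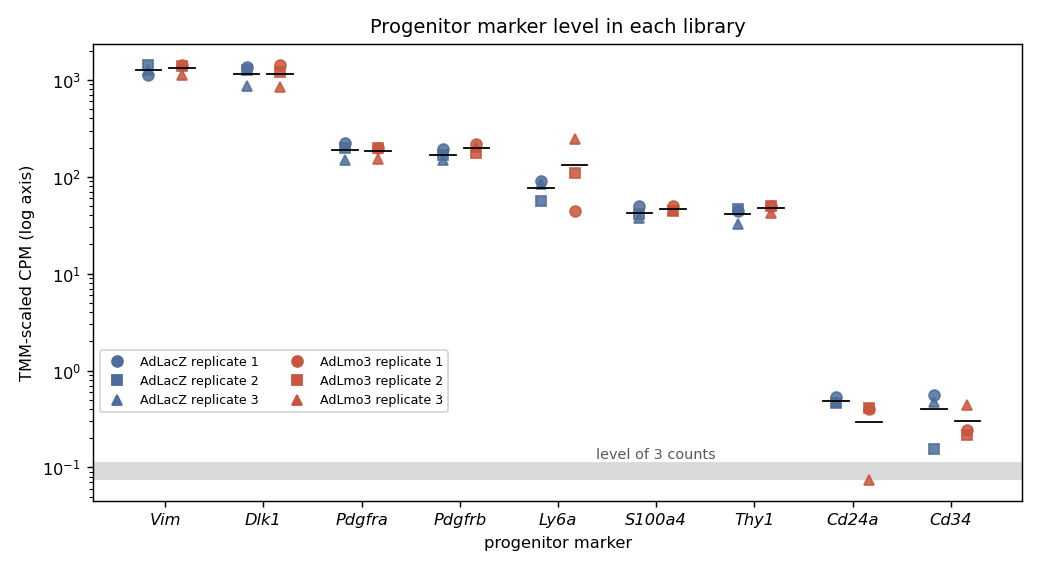
TMM-scaled CPM (vertical axis, logarithmic) of the 9 progenitor markers in each of the 3 AdLacZ (blue) and 3 AdLmo3 (red) libraries, with a symbol for each replicate number, a line at each group mean and a grey band at the level of 3 counts. *Cd24a* in Ad*Lmo3* replicate 3, at 2 counts, lies just below the band.

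**Figure D2:**
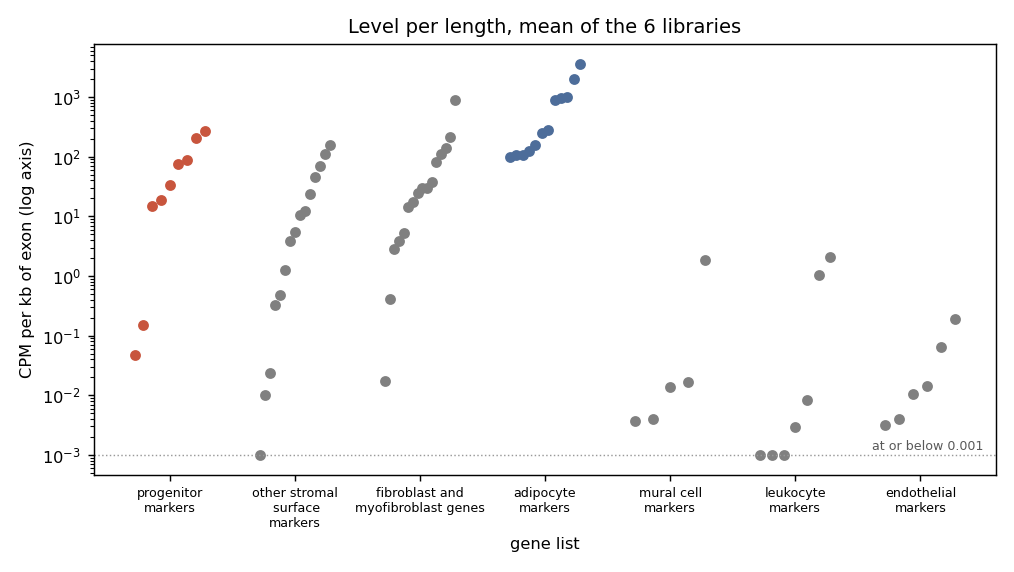
Mean CPM per kb of exon over 6 libraries (vertical axis, logarithmic, values at or below 0.001 drawn at 0.001) for each gene of the progenitor, other stromal, fibroblast, adipocyte, mural, leukocyte and endothelial lists. *Vim* and *Dlk1*, the upper progenitor markers, lie within the range of the adipocyte markers, and *Cd24a* and *Cd34* lie within that of the endothelial markers.

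Compared with adipocyte genes on the same scale, as means over 6 libraries, *Vim* lay above 6 of 12 adipocyte markers and *Dlk1* above 5 of 12. *Vim* was thus above *Lipe* (252 CPM per kb), *Dlk1* was above *Pparg* (158), and both were below *Plin1* (276). This order and these counts differed between the groups. In AdLacZ, *Vim* (266 CPM per kb) lay above *Plin1* (223), and *Dlk1* (205) lay above *Lipe* (201). In Ad*Lmo3*, *Vim* (277) lay below *Lipe* (303). In AdLacZ the level of *Adipoq*, among the most abundant adipocyte transcripts, per kb was 4.92 times that of *Vim* and 6.38 times that of *Dlk1*, and in Ad*Lmo3* it was 9.82 and 13.2 times. These ratios differ between the groups while *Adipoq* rose from 1805 ± 86.8 to 3749 ± 679.9 CPM (SD, n = 3 each; log2 fold change 1.05, with an edgeR adjusted p of 0.00724, or 0.0554 without AdLacZ replicate 3). The ratio of *Adipoq* to *Cd34* was 24069 in AdLacZ and 65633 in Ad*Lmo3*, and rests on 6 to 20 counts of *Cd34* per library over both groups.

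The promoters of the most and least abundant markers are printed here, with *S100a4* as a marker in between, so that the range of levels can be set beside the sequence at the start of each gene. Each run holds 250 bases before the RefSeq transcription start (GRCm38.p6), and capitals mark TATAAA or CCAAT on either strand. The window of *Vim* lies inside the GENCODE span of the gene, which begins at 13573927. Its positions therefore hold for the RefSeq start only. The RefSeq promoters used here matched 5 of the 9 markers, *Vim*, *Dlk1*, *S100a4*, *Cd34* and *Pdgfra*.
Vim promoter (chr2:13574061-13574310, plus strand): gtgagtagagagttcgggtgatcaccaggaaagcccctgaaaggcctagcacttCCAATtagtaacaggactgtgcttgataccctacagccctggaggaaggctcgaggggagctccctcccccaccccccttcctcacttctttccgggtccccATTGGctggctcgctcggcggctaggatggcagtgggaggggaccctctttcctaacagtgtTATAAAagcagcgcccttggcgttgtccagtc
Dlk1 promoter (chr12:109452573-109452822, plus strand): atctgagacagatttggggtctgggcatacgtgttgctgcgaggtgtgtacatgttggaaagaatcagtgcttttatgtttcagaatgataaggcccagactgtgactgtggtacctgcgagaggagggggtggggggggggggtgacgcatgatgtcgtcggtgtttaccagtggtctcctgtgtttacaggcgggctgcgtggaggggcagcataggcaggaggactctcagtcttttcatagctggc
S100a4 promoter (chr3:90603520-90603769, plus strand): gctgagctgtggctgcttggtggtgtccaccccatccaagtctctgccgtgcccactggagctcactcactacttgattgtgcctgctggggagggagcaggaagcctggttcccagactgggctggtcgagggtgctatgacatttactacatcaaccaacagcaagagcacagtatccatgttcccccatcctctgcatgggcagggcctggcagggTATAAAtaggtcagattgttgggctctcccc
Cd34 promoter (chr1:194938571-194938820, plus strand): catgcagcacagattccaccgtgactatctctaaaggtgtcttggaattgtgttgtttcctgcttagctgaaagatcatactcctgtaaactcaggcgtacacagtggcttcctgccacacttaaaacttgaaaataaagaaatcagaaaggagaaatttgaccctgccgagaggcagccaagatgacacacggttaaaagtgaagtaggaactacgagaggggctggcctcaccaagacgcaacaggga
TATAAA was found 32 bases before the start of *Vim* and 31 bases before that of *S100a4*, whereas the windows of *Dlk1* and *Cd34* held neither motif. *Vim* also held CCAAT 196 bases before its start and, on the opposite strand, 94 bases before it. Of the 32851 promoter windows of this length, 12.4% held TATAAA and 33.8% held CCAAT, counted on both strands. A match is a description of the letters only, and the windows of the abundant *Dlk1* and the barely detected *Cd34* were alike in holding none.

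Ad*Lmo3* and AdLacZ libraries were compared gene by gene to ask whether LMO3 changed the residual progenitor transcripts. None of the 9 markers was called at an adjusted p-value under 0.05 by edgeR's quasi-likelihood test, where 4.28% of the 12766 tested genes were (2.71% upwards and 1.57% downwards in Ad*Lmo3*). The count was also 0 by DESeq2, which called 1104 of 12917 tested genes, and 0 by limma voom, which called 562 of 12766. At an unadjusted p under 0.05 it was 0 of 9, against 20.6% of all tested genes. The log2 fold changes ranged from -0.65 to 0.78 with a median of 0.06, beside a median of 0.00 over all tested genes, and 6 were positive and 3 negative, beside 49.6% negative among all tested genes. In 1 marker, *Cd24a*, the groups did not overlap, a pattern seen in 26.5% of tested genes and, in the direction of *Cd24a*, lower in Ad*Lmo3*, in 13.2%. With 9 genes such counts cannot be set apart from the shares over all genes, and each marker is described by its interval.

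**Figure D3:**
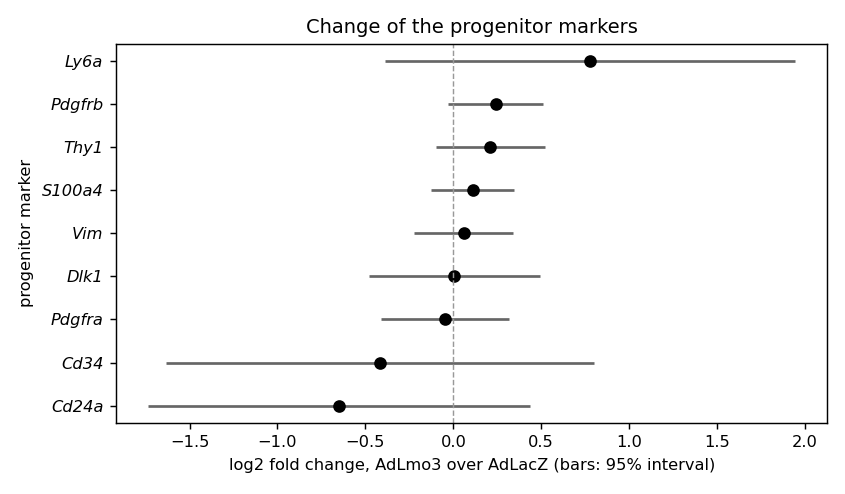
Log2 fold change of Ad*Lmo3* over AdLacZ (horizontal axis; points) with 95% intervals from edgeR's quasi-likelihood fit (bars) for the 9 progenitor markers, n = 3 libraries per group. Every interval includes 0, the narrowest being that of *S100a4* (-0.13 to 0.35) and among the widest those of *Ly6a* (-0.39 to 1.94) and *Cd34* (-1.64 to 0.80).

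Of the factors that hold back adipogenesis, *Dlk1* (chromosome 12, 109452823 to 109463336, plus strand) was measured at 1342, 1261 and 873 CPM in AdLacZ replicates 1, 2 and 3 and at 1422, 1217 and 849.7 CPM in Ad*Lmo3* replicates 1, 2 and 3. Both groups thus spanned nearly the same range, with replicate 3 the lowest in each. The means were 1159 ± 251 and 1163 ± 289.95 CPM (SD, n = 3 each). The log2 fold change was 0.01 with a 95% interval from -0.48 to 0.49 (adjusted p = 0.993, edgeR). *Dlk1* took 0.118% of all counts on genes. The sign of its change depended on the libraries, with a log2 fold change of -0.16 without AdLacZ replicate 3, -0.16 without Ad*Lmo3* replicate 1 and -0.03 without Ad*Lmo3* replicate 2.

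The PDGF receptors are tyrosine kinases of mesenchymal cells, of which PDGFRα marks adipocyte progenitors and PDGFRβ is shared with mural cells. *Pdgfra* (chromosome 5, 75152292 to 75198215, plus strand) stood at 221, 196 and 149 CPM in the AdLacZ libraries and at 199, 197 and 151 CPM in the Ad*Lmo3* libraries, again with replicate 3 the lowest in both groups. Its log2 fold change was -0.05 (95% interval -0.41 to 0.32, adjusted p = 0.906, edgeR), and turned to 0.08 without AdLacZ replicate 1 and to 0.07 without Ad*Lmo3* replicate 3. A share of 4.05% of its stretches of read length (75 bases) is also found in *Gm42802* and *Gm42803*, which lie on the opposite strand. *Pdgfrb*, on chromosome 18, stood at 192, 166 and 148 CPM in AdLacZ and at 219, 174 and 205 CPM in Ad*Lmo3*, where the lowest Ad*Lmo3* library lay between the AdLacZ libraries. It had the smallest p-value of the 9 markers, with a log2 fold change of 0.24 (95% interval -0.03 to 0.51, unadjusted p = 0.0726, adjusted p = 0.294, edgeR).

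Within a library, the ratio of the 2 receptors does not depend on scaling. The counts of *Pdgfra* over those of *Pdgfrb* were 1.15, 1.18 and 1.01 in AdLacZ and 0.909, 1.13 and 0.737 in Ad*Lmo3* libraries, so that the groups overlapped through Ad*Lmo3* replicate 2. The difference of the mean log2 ratios, Ad*Lmo3* minus AdLacZ, was -0.28 (exact two-sided permutation test, p = 0.2, where 0.1 is the smallest p that 3 against 3 libraries can give). Among the ligands, *Pdgfa* was at 9.79 ± 0.662 and 9.82 ± 1.03 CPM and *Pdgfc* at 23.4 ± 0.628 and 27.4 ± 3.19 CPM in AdLacZ and Ad*Lmo3* (SD, n = 3 each). *Pdgfb* and *Pdgfd* had too few counts to be tested. None of the 2 tested ligands was called by edgeR, DESeq2 or limma voom, beside 4.28% of all tested genes by edgeR. Of the 2, 1, *Pdgfc*, had an unadjusted p under 0.05 (edgeR, 0.0425, adjusted p = 0.222), beside 20.6% of all tested genes.

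Of the surface markers, *Ly6a* (SCA-1, chromosome 15, 74994877 to 74998031, minus strand) varied most between libraries among the 7 well expressed markers. SCA-1 is a small GPI-anchored protein of progenitor cells, and its gene is known to respond to interferon. *Ly6a* stood at 90.6, 56.3 and 84.8 CPM in AdLacZ replicates 1, 2 and 3 and at 44.7, 108 and 245 CPM in Ad*Lmo3* replicates 1, 2 and 3. The Ad*Lmo3* group thus held both the lowest and the highest of the 6 libraries, which were 5.48-fold apart, and enclosed all AdLacZ values. The mean of 133 CPM in Ad*Lmo3* against 77.2 CPM in AdLacZ gave a log2 fold change of 0.78 (95% interval -0.39 to 1.94, adjusted p = 0.442, edgeR), and without Ad*Lmo3* replicate 3 the log2 fold change was -0.01. Without Ad*Lmo3* replicate 1 it was 1.19 (adjusted p = 0.0894, edgeR).

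The related genes *Ly6e* and *Ly6c1*, also on the Ly6 list, had the same lowest and highest library. *Ly6e* went from 264 CPM in Ad*Lmo3* replicate 1 to 1159 CPM in replicate 3, with 452, 278 and 469 CPM in the AdLacZ libraries, and *Ly6c1* from 8.21 to 21.2 CPM. Neither passed the threshold (log2 fold changes 0.74 and 0.18, adjusted p = 0.413 and 0.798, edgeR). A list of 19 interferon-stimulated genes, drawn up after these values were seen, summed to 2164, 2317 and 2746 CPM in AdLacZ replicates 1, 2 and 3 and to 1130.3, 2417 and 5357 CPM in Ad*Lmo3* replicates 1, 2 and 3. All 19 were highest in Ad*Lmo3* replicate 3 and lowest in Ad*Lmo3* replicate 1, and their median log2 fold change was 0.26. The share of all tested genes with this order was not counted. AdLacZ replicate 2, the lowest of the AdLacZ libraries in *Ly6a*, was not low in this sum. The part of interferon-stimulated transcription in the spread of *Ly6a* was not tested. Stretches of 75 bases shared with *Ly6c1* and *Ly6i* make up 6.33% of *Ly6a*.

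**Figure D4:**
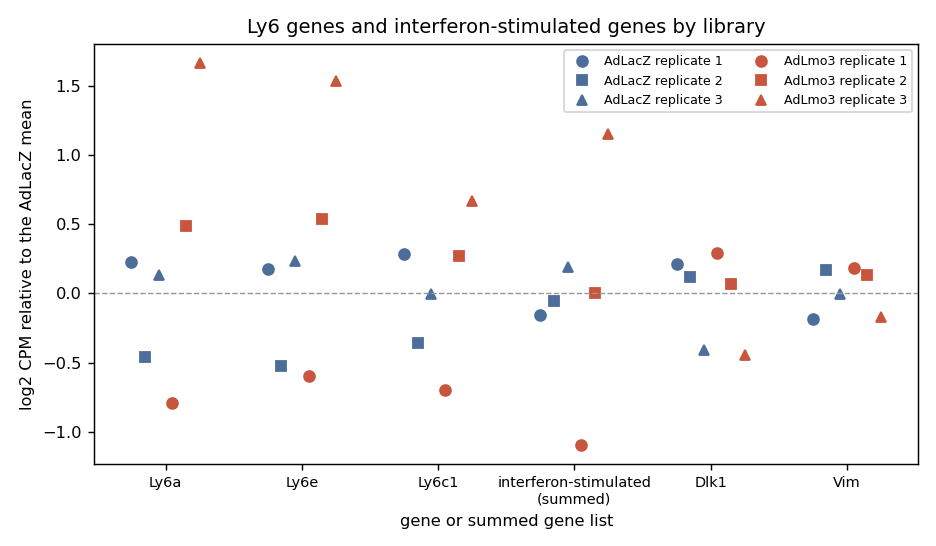
Log2 CPM relative to the AdLacZ mean (vertical axis) in each AdLacZ (blue) and AdLmo3 (red) library for *Ly6a*, *Ly6e*, *Ly6c1*, the sum of 19 interferon-stimulated genes, *Dlk1* and *Vim*. Ad*Lmo3* replicate 3 is highest and Ad*Lmo3* replicate 1 lowest in the first 4 columns, whereas *Dlk1* is lowest in replicate 3 of both groups.

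*Thy1* (chromosome 9, 44043384 to 44048579, plus strand), which encodes a GPI-anchored glycoprotein of fibroblasts, stood at 44.7, 46.1 and 32.3 CPM in AdLacZ and at 49.5, 50.3 and 42.6 CPM in Ad*Lmo3* libraries. AdLacZ replicate 3 was the lowest, and the groups overlapped. The log2 fold change was 0.21 (95% interval -0.10 to 0.52, adjusted p = 0.436, edgeR).

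*Cd34*, a sialomucin of progenitor and endothelial cells (chromosome 1, 194938819 to 194961279, plus strand), had 20, 6 and 16 counts in AdLacZ and 9, 8 and 12 counts in Ad*Lmo3* libraries. *Cd24a*, a mucin-like GPI-anchored protein of early progenitors (chromosome 10, 43578284 to 43584265, plus strand), had 19, 18 and 16 counts in AdLacZ and 15, 15 and 2 counts in Ad*Lmo3* libraries. The difference between the groups of *Cd24a*, a log2 fold change of -0.65 (95% interval -1.73 to 0.44, adjusted p = 0.498, edgeR), rested on Ad*Lmo3* replicate 3 and was -0.26 without it. The 2 counts of that library lie under the 3 counts taken as detectable. For *Cd34* the log2 fold change was -0.42 (95% interval -1.64 to 0.80, adjusted p = 0.718, edgeR). *Pecam1* (CD31), an endothelial marker, stood at 1.52 ± 0.380 and 0.856 ± 0.257 CPM in AdLacZ and Ad*Lmo3* (SD, n = 3 each, log2 fold change -0.81, adjusted p = 0.172, edgeR). *Tek*, the other tested endothelial marker, went the other way, with 0.175 ± 0.185 and 0.438 ± 0.251 CPM (log2 fold change 1.30, adjusted p = 0.369, edgeR). The part of endothelial transcripts in the level of *Cd34* was not tested. Both *Cd34* and *Cd24a* are uncertain at this depth, as counting error alone gives a coefficient of variation of 23.8% to 32.2% in a group.

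The cytoskeletal and calcium-binding markers spanned the narrowest ranges of the 9, with the highest library 1.29-fold (*Vim*) and 1.30-fold (*S100a4*) above the lowest. *Vim* (chromosome 2, 13573927 to 13582826, plus strand), the intermediate filament of mesenchymal cells, stood at 1110.3, 1416 and 1254 CPM in AdLacZ and at 1433, 1384 and 1118 CPM in Ad*Lmo3* libraries, which overlapped almost entirely. Its log2 fold change was 0.06 (95% interval -0.23 to 0.34, adjusted p = 0.843, edgeR), and became -0.03 without AdLacZ replicate 1 and -0.0050 without Ad*Lmo3* replicate 1. *S100a4* (chromosome 3, 90603771 to 90606045, plus strand) stood at 49.3, 41.1 and 37.8 CPM in AdLacZ and at 49.3, 44.1 and 44.9 CPM in Ad*Lmo3* libraries, a log2 fold change of 0.11 (95% interval -0.13 to 0.35, adjusted p = 0.609, edgeR). *Gm42674*, which overlaps *S100a4* on the same strand, shares 44.8% of its stretches of read length, so that the level of *S100a4* depends on how reads common to both were counted.

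The spread between replicates was described for each marker by the biological coefficient of variation (BCV) that edgeR fitted to it, whose median over all tested genes was 0.0985. All 9 markers lay above this median. *Ly6a* had a BCV of 0.423, above 99.2% of tested genes, and the sparse *Cd34* and *Cd24a* had 0.315 (97.5%) and 0.233 (92.7%). *Dlk1* followed among the abundant markers with 0.191 (87.4%), and *Pdgfra* with 0.149 (77.2%). *S100a4*, above 52.3% of tested genes, was the nearest to the median. For the 7 well expressed markers counting error was small, at 0.467% to 2.59% of the mean, against a coefficient of variation between replicates of 6.09% (*S100a4* in Ad*Lmo3*) to 77.1% (*Ly6a* in Ad*Lmo3*).

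**Figure D5:**
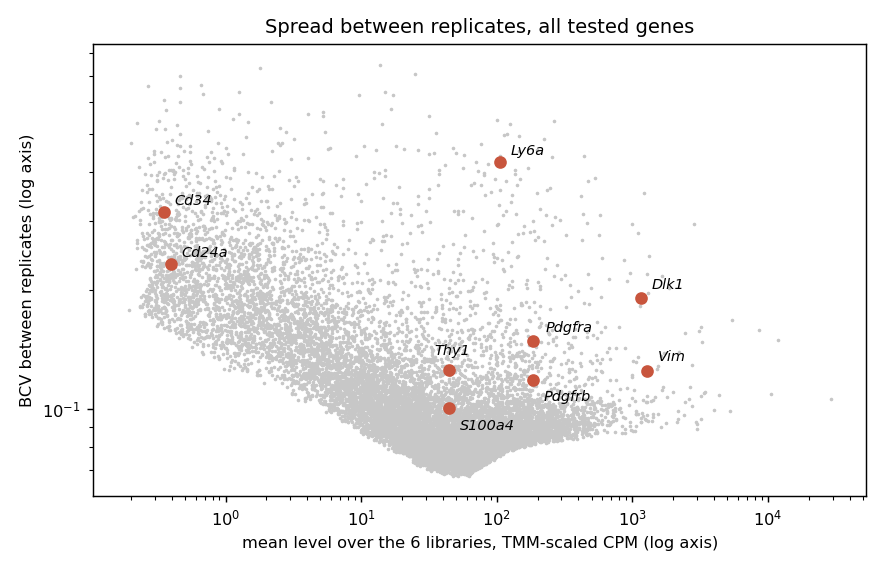
BCV between replicates (vertical axis, logarithmic) against mean CPM over 6 libraries (horizontal axis, logarithmic) for all 12766 tested genes (grey) and the 9 progenitor markers (red). *Ly6a* stands far above genes of a like level, *Dlk1* lies above the bulk of abundant genes, and *S100a4* lies within the bulk.

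The markers were also examined for which library was lowest. In AdLacZ, replicate 3 was the lowest library for 5 of 9 markers, beside 29.97% of all tested genes, and in Ad*Lmo3* replicate 3 was the lowest for 5 of 9, beside 34.5%. Replicate 3 was the lowest in both groups for *Dlk1*, *Pdgfra* and *Thy1*, which is 3 of 9 markers beside 13.8% of all tested genes. With 9 markers these counts cannot be set apart from the shares over all genes. The same order held for 7 of 15 tested fibroblast and myofibroblast genes, for 5 of 9 genes of the *Dlk1* pathway and imprinted growth genes, for 4 of 12 stromal surface markers, for 4 of 13 S100, Ly6 and filament relatives, for 0 of 2 PDGF ligands and for 0 of 12 adipocyte markers. It also held for 1 of 2 endothelial, 0 of 2 leukocyte and 0 of 1 mural cell markers. These are descriptions of 6 libraries, and the labels do not say that a replicate number marks a shared culture or day.

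Other genes of the stromal program were examined by lists, whose counts are too small to be set apart from the shares over all genes. Of 12 tested stromal surface markers (15 listed), 1 passed the threshold upwards and 1 downwards in Ad*Lmo3*, beside 2.71% and 1.57% of all tested genes, and the median of the log2 fold changes was 0.11. *Mcam* (CD146), an adhesion molecule of stromal and mural cells, rose from 121 ± 7.84 to 182 ± 23.9 CPM (SD, n = 3 each; log2 fold change 0.59, adjusted p = 0.0192, edgeR), with no overlap between groups. *Alcam* (CD166), a cell adhesion molecule, fell from 89.4 ± 7.79 to 63.0 ± 7.38 CPM (log2 fold change -0.50, adjusted p = 0.0317, edgeR), also without overlap. *Mcam* lost its call when any AdLacZ library was left out (adjusted p = 0.0626, 0.0688 and 0.0711 without replicates 1, 2 and 3), and *Alcam* without AdLacZ replicate 2 or 3 or Ad*Lmo3* replicate 1 or 3 (0.0749, 0.134, 0.0722 and 0.0826). The abundant *Itgb1* (integrin β1) and *Cd81* (a tetraspanin) had log2 fold changes of -0.13 and 0.07 and adjusted p-values of 0.379 and 0.627 from edgeR.

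None of the 15 tested fibroblast and myofibroblast genes (16 listed) was called by edgeR or limma voom, beside 4.28% of all tested genes by edgeR. Their median log2 fold change was -0.06. DESeq2 called 1, beside 1104 of the 12917 genes it tested. This was *Fbn1* (fibrillin 1), which edgeR gave a log2 fold change of 0.39 (adjusted p = 0.153). *Fbn1* was the 1 gene of the list with an unadjusted p under 0.05 by edgeR, beside 20.6% of all tested genes. *Sparc*, a matrix glycoprotein, stood at 3452 ± 418 and 3379.9 ± 179 CPM and *Fn1* (fibronectin) at 2701 ± 639 and 2211 ± 188 CPM in AdLacZ and Ad*Lmo3* (SD, n = 3 each), with adjusted p-values of 0.913 and 0.383 from edgeR. Of the 9 tested genes on the list of *Dlk1* pathway and imprinted growth genes (14 listed), 0 were called by edgeR, DESeq2 or limma voom, beside 4.28% of all tested genes by edgeR. At an unadjusted p under 0.05 the count was 0, beside 20.6% of all tested genes, and the median log2 fold change was 0.01. The maternally expressed *Meg3*, the neighbour of *Dlk1* in the same imprinted cluster, had at most 1 count in any library, too few to be tested, while *Dlk1* had 22951 to 52674. *Igf2*, a paternally expressed growth factor, had 343 ± 99.1 and 366 ± 65.8 CPM, and *Gnas*, which encodes the stimulatory G protein, had 1008 ± 29.2 and 998 ± 17.6 CPM.

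Among 13 tested relatives of the markers in the S100, Ly6 and intermediate filament families (16 listed), 2 passed the threshold upwards and 0 downwards in Ad*Lmo3*, beside the same 2.71% and 1.57% of all tested genes, and the median of the log2 fold changes was 0.10. *S100a1* rose from 109 ± 7.30 to 149 ± 4.57 CPM (SD, n = 3 each; log2 fold change 0.45, adjusted p = 0.0146, edgeR) and *S100a13* from 17.4 ± 1.99 to 24.4 ± 1.85 CPM (0.49, adjusted p = 0.0420). *S100a6*, a calcium-binding protein of growing fibroblasts, had a log2 fold change of -0.01 (adjusted p = 0.956, edgeR). *S100a13* did not pass with library totals as the only scaling (adjusted p = 0.0599) or when any library but AdLacZ replicate 1 was left out (up to 0.170), and *S100a1* did not pass without AdLacZ replicate 3 (0.0743) or Ad*Lmo3* replicate 2 (0.0706).

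For the adipocyte genes in the same cultures, 9 of 12 were called higher and 0 lower, with a median of 0.59, against 2.71% of all tested genes called higher. These were *Adipoq*, *Fabp4*, *Plin1*, *Pparg*, *Cebpa*, *Cidec*, *Cfd*, *Lipe* and *Retn*, which serve hormone secretion, lipid storage and the transcription of adipocyte genes. The largest change among them was that of *Retn* (resistin), with a log2 fold change of 1.44 (adjusted p = 0.00243, edgeR). The call count of this list was 2 without AdLacZ replicate 3 and 5 without AdLacZ replicate 2 or Ad*Lmo3* replicate 2. The difference between the progenitor markers and the adipocyte genes in their response was not tested. The markers of endothelial, leukocyte and mural cells gave 0 calls by edgeR, DESeq2 or limma voom among 2, 2 and 1 tested genes. Over all tested genes edgeR called 4.28%. An unadjusted p under 0.05 (edgeR) was found for 1, 0 and 0 of them, beside 20.6% of all tested genes.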

How the data were processed

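The authors sequenced total RNA of 3T3-L1 adipocytes as single reads of 75 bp and deposited, for each of 6 libraries, raw counts of reads per gene symbol. The submitters' processing notes name STAR 2.5.0b, DESeq2 1.6.3 and mm10. The counting program, its strand setting and the annotation are not given in the sources used here. Reads assigned to no gene (7.15% to 8.94%) or to several (0.476% to 0.543%) were left out. From the deposited counts, log2 fold changes, their 95% intervals and p-values were computed with edgeR 4.0.16 under R 4.3.3, using its default filter on low counts, TMM and the quasi-likelihood test, and adjusted by Benjamini-Hochberg over 12766 genes, with a threshold of 0.05. Floors and counting errors cover counting only. DESeq2 1.42.0, limma 3.58.1 (voom), other scalings and filters, thinning to the smallest library, a replicate block and leaving out each library were alternatives. The test was checked on simulated counts. No replicates were alike within sampling noise (chi-square per degree of freedom 24.0 to 64.0).

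Exon lengths, positions and shared stretches came from GENCODE M21 (GRCm38), promoters from RefSeq. Named genes were all markers, list genes past the threshold, and up to 4 of the most abundant others per list, of which at most 2 are printed. *Ly6c1*, *Meg3*, *Cdh5*, *Ptprc*, *Ly6e*, *Pecam1*, *Tek*, *Notch3* and *Fbn1* were added for results that turn on them. The markers and lists were chosen with earlier results of these data known, and the interferon list after seeing the values. Figures were drawn with matplotlib 3.10.9.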

Additional observations from a re-analysis of the deposited data

How the results depend on the processing

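None of the 9 progenitor markers passed the threshold in any of 15 alternatives. In 133 combinations of a marker and an alternative the direction was kept in 121 and turned in 12. The log2 fold change of *Dlk1* was -0.0080 with limma voom, -0.067 with library totals only and -0.0024 with the replicate block, and that of *Vim* was -0.013 with library totals. With library totals *Pdgfa* was at -0.065 and *Cd81* at -0.0082. Leaving out each library gave ranges of -0.16 to 0.19 (*Dlk1*), -0.19 to 0.081 (*Pdgfra*), -0.014 to 1.19 (*Ly6a*), -0.026 to 0.16 (*Vim*), -0.067 to 0.078 (*Pdgfa*), -0.11 to 0.060 (*Sparc*), -0.066 to 0.069 (*S100a6*), -0.13 to 0.49 (*Ly6c1*), -0.10 to 0.31 (*Igf2*) and -0.029 to 0.0098 (*Gnas*). The difference in log2 ratio of *Pdgfra* to *Pdgfrb* ranged from -0.44 to -0.13.

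Over all genes, 547 were called (346 higher, 201 lower). DESeq2 called 1104, library totals only gave 266 higher and 501 lower, and leaving out a library gave from 77 (without AdLacZ replicate 3) to 501 (without Ad*Lmo3* replicate 1). DESeq2 called 1 fibroblast gene. Of the S100, Ly6 and filament relatives, 1 was called with library totals and 1 with the replicate block, and 0 to 2 without a library. Stromal surface markers gave 0 to 2 calls without a library, and adipocyte markers 2 to 9. The runs without a library also held fewer libraries, and the cause of these differences was not tested.

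Blocking on the replicate (348 genes higher, 150 lower) kept the markers at 0 calls, and *S100a13* had an adjusted p of 0.0535 (edgeR). Deviations of same-numbered libraries correlated by 0.05, 0.23 and 0.23 across genes, and the pairing rests on the number only. AdLacZ replicate 1 and Ad*Lmo3* replicate 1 did not correlate best with their own number. *Cd34* and *Cd24a*, at 20 counts or fewer, are limited by depth and had no value under a filter of mean CPM of at least 1. Library totals shifted the median of all genes by -0.07.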
